A study of Homo sapiens with 8 samples.

Results

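The genes described here are receptors, a ligand and adaptors of the tumour necrosis factor family through which B cells receive survival signals. They were chosen by name, as probe sets of the array annotated with a single symbol among 9 genes. TNFRSF13C, TNFRSF13B, TNFRSF17 and TNFRSF14 encode receptors, LTB a ligand, and TRAF1, TRAF2, TRAF3 and TRAF5 adaptors that bind the tails of such receptors. TRAF2 is not analysed here. The other 8 genes, of 19775 with such a probe set, were measured by 12 probe sets. Each gene is represented by its probe set with the highest mean log2 value over 8 arrays. RNA came from RL, a human lymphoma line of B cell origin with the t(14,18) translocation, grown for 14 days as multicellular aggregates of lymphoma cells. Pyronin Y, a dye that binds RNA, was used to sort quiescent (dull) and cycling (bright) cells, and each fraction was measured on 4 Affymetrix U133 Plus 2.0 arrays. The comparison asks how the transcripts of resting cells differ from those of dividing cells in the same aggregates. All samples come from 1 cell line. Whether replicates of a fraction were separate cultures is not stated in the labels, so the p-values reflect only the spread over these arrays, possibly technical.

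As background, the cytokine BAFF keeps mature B cells alive mainly through the receptor encoded by TNFRSF13C. BAFF and the related ligand APRIL also bind the receptors TACI, encoded by TNFRSF13B, and BCMA, encoded by TNFRSF17, which is best known from plasma cells. TRAF3, together with TRAF2 and the ubiquitin ligases of the BIRC family, keeps the kinase NIK at a low level. Receptors of this family, when bound, release NIK, and the NF-kB subunits p52 and RelB then enter the nucleus. TNFRSF14, also called HVEM, binds LIGHT, lymphotoxin alpha and the inhibitory receptor BTLA, and its gene is often lost in follicular lymphoma. Lymphotoxin beta, the product of LTB, holds lymphotoxin alpha at the cell surface and binds the lymphotoxin beta receptor, which shapes lymphoid tissue.

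RefSeq promoter windows of build GRCh38.p14 were matched by symbol for 7 of the 9 genes, not for TNFRSF13C and TNFRSF17. The 250 bases before each annotated start were searched on both strands for the 10-letter NF-kB consensus. The windows of 3 genes hold a match. They are shown because one of these genes was called higher in quiescent cells and the other 2 are the ligand and the NIK-restraining adaptor of the set. Of all genes with such a window, 6.28% have a match. A match is a run of letters and not a shown binding site. The TNFRSF14 window lies inside the annotated span of its gene, and the LTB and TRAF3 windows lie just before theirs. Capitals mark the match, which begins 84 bases before the start of TNFRSF14, 86 before that of LTB (on the opposite strand) and 33 before that of TRAF3.
TNFRSF14, chr1:2556121-2556370, + strand: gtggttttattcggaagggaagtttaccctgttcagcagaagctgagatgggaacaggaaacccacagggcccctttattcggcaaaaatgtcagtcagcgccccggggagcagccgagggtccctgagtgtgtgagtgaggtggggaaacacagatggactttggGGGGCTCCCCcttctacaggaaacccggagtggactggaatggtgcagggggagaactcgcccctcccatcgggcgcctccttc
LTB, chr6:31582426-31582675, - strand: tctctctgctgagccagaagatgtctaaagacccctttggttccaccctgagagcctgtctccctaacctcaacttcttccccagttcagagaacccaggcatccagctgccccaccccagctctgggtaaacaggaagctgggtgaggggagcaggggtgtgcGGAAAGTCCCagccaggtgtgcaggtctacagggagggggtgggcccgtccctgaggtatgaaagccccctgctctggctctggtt
TRAF3, chr14:102777199-102777448, + strand: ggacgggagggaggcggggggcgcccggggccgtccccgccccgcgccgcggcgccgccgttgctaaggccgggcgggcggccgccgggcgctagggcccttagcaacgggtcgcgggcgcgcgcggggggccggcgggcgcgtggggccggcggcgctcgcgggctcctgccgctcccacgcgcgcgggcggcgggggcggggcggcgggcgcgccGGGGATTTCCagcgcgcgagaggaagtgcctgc

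The deposited values are intensities from MAS5, scaled by the authors so that each array has a trimmed mean of 500.1. The median intensity of an array lay between 103.6 and 113.8 for the quiescent fraction and between 72.2 and 98.1 for the cycling fraction. Log2 values were therefore compared after each array was centred on its median, and the scaling as deposited and quantile normalization stand beside this. The median of all probe sets lies near the intensity limit of 83.3 used for testing, so centring aligns mostly dim signal. A gene not called in the centred values alone is read with that limit. Centring lowers every log2 difference by 0.41, so the sign of a small difference depends on it. The median log2 difference of all 11678 genes tested, quiescent minus cycling, was −0.33 in the centred values, 0.08 with the scaling as deposited and −0.04 with quantile normalization. Of these genes 2.8% were called higher in quiescent cells and 32.5% lower in the centred values, 12.2% and 15.4% as deposited, and 10.5% and 16.4% after quantile normalization. A gene was called at an adjusted p under 0.05 of limma, a linear model fitted across all genes tested. All 5 measured B cell markers passed the intensity filter, with summed intensities of 51025 to 62458 on quiescent and 51250 to 61831 on cycling arrays. In the centred values MS4A1, CD79A, PAX5 and CD22 were called lower, by −0.39, −0.56, −0.51 and −0.52 (limma adjusted p = 0.0488, 0.0469, 0.0430 and 0.0418). CD79B was not called (−0.13), and none of the 5 was called under the other scalings. None of 3 measured myeloid markers passed the intensity filter, with sums of 102 to 185 on quiescent and 107 to 296 on cycling arrays, and 1 of 3 stromal markers did, with sums of 228 to 411 and 194 to 339. Of 6 T and NK cell markers 3 passed, with sums of 462 to 717 on quiescent and 693 to 826 on cycling arrays. CD247, the zeta chain of the T cell receptor complex, was called lower under all 3 scalings, at 265 ± 38.9 in quiescent and 413 ± 86.2 in cycling cells. Its centred log2 difference was −1.04. CD3D at −1.14 and CD3E at −0.63 were not called (limma adjusted p = 0.0913 and 0.196), nor under the other scalings. CD2, NKG7 and GNLY did not pass the filter and were not tested. RNA integrity was read from the ACTB control probe sets, whose log2 ratio of 3′ to 5′ signal was 2.57 ± 0.18 on quiescent and 2.02 ± 0.20 on cycling arrays (SD, n = 4 each, two-sided exact permutation p = 0.0286, the smallest possible, and 0.0286 adjusted over 3 control ratios). The part of these markers and of the ACTB ratio in the differences below was not tested. Across the genes tested, cycling sample 2 correlated with the quiescent arrays at 0.945 on average, and the other cycling samples at 0.913 to 0.932. In a bulk sample, fewer cells of a kind and less RNA per cell cannot be told apart. The fractions were sorted by an RNA dye, and all 3 scalings bring the arrays to a common level. A rise or fall given below is thus in a transcript's share of the measured RNA, and amounts per cell were not measured.

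Of the 8 measured genes, all of which passed the intensity filter, TNFRSF14 rose and TNFRSF17 fell in quiescent cells under all 3 scalings. The other 6 were not called in the centred values. As deposited, TNFRSF13C, TRAF1 and TRAF5 were called higher as well. After quantile normalization the genes called higher were TNFRSF14, TNFRSF13C, LTB and TRAF5. The counts of 1 higher and 1 lower of 8 stand against 2.8% and 32.5% of all genes tested, and the 4 higher as deposited against 12.2%. Under all 3 scalings together, 2.74% of all genes tested were called higher and 14.1% lower. The quiescent and cycling groups did not overlap for 1 gene that was higher and 2 that were lower in the centred values, against 3.04% and 28.2% of all genes tested. In the deposited intensities this held for 4 higher and 1 lower, against 13.3% and 15.4%. The median log2 difference of the 8 genes was 0.01 centred, against −0.33 for all genes tested, and 0.42 as deposited, against 0.08. The same 2 genes were called without sample number 2 in both groups, a setting added after the data were seen.

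**Figure D1:**
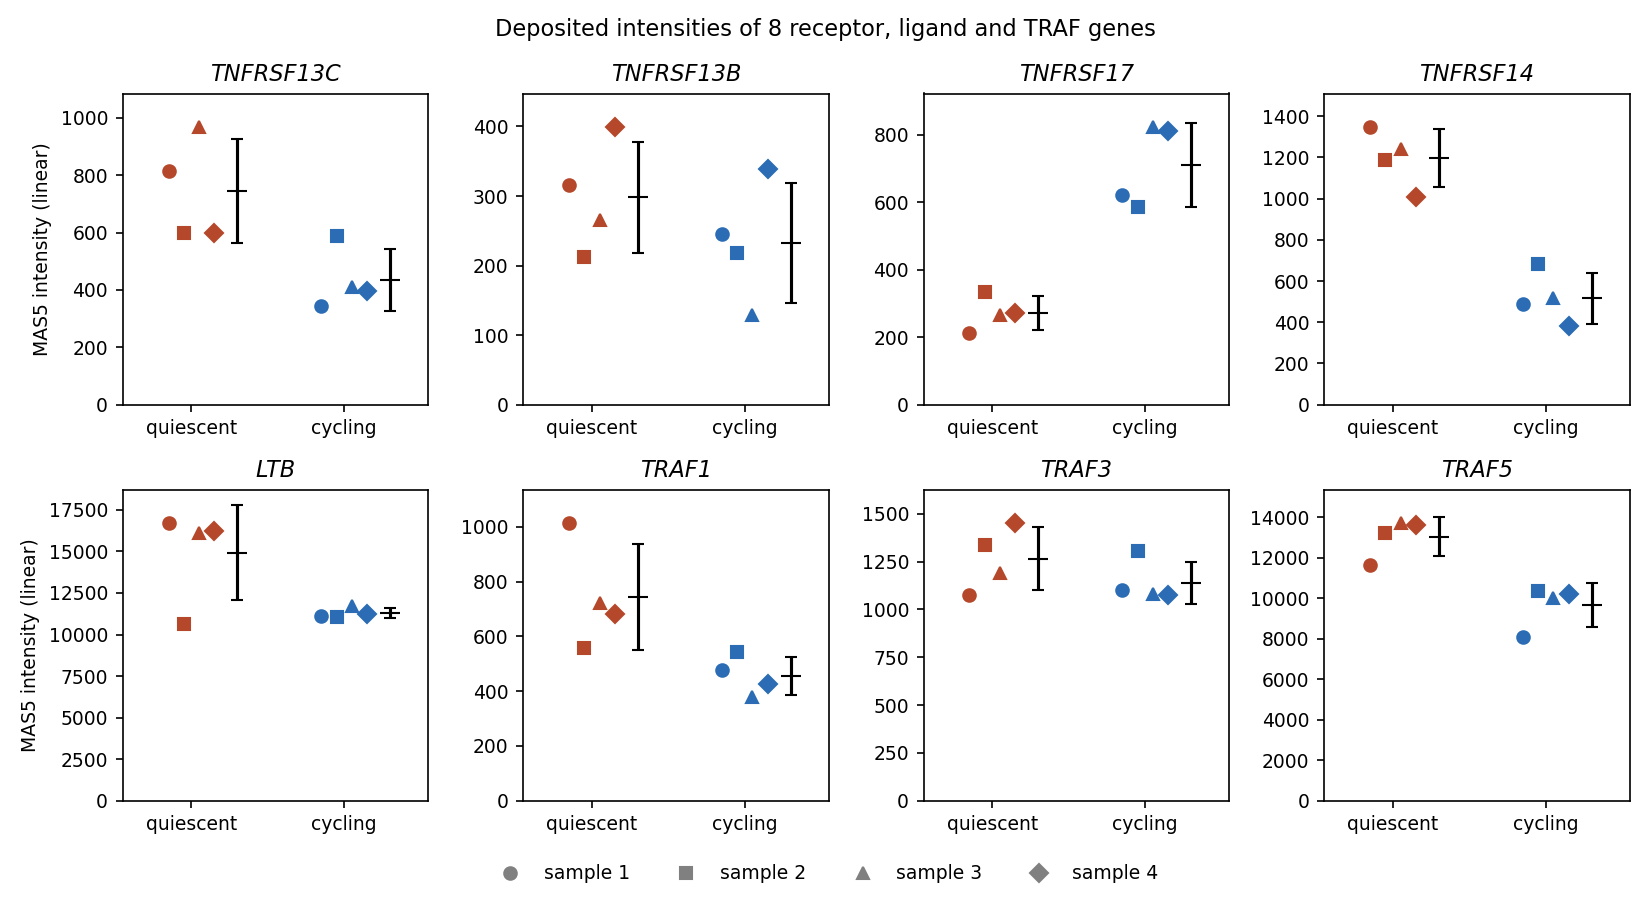
Deposited MAS5 intensity on a linear axis for each of 8 genes, with quiescent samples on the left and cycling samples on the right of each panel. Symbols give the sample number and bars the mean and SD of 4 arrays. TNFRSF17 is lower and TNFRSF14 higher on every quiescent array than on any cycling array, and LTB of quiescent sample 2 sits just below the cycling samples.

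TNFRSF17, which encodes BCMA, had the largest change of the 8 genes. Its intensities were 213, 335, 265 and 270 in quiescent samples 1 to 4, against 622, 585, 823 and 810 in cycling samples 1 to 4. The groups do not overlap, and the quiescent array with the highest value and the cycling array with the lowest are both numbered 2. The means were 271 ± 49.8 in quiescent and 710 ± 124 in cycling cells (SD, n = 4 each). The log2 difference was −1.81 (SE 0.23, 95% interval −2.30 to −1.32, limma adjusted p = 2.14e-05), with −1.39 as deposited (adjusted p = 0.000301) and −1.57 after quantile normalization (adjusted p = 0.000169). Of all genes tested 2.18% had a log2 difference as low or lower. TNFRSF17 is also a plasma cell gene, so the plasma cell markers stand beside it. SDC1, the plasma cell surface marker syndecan-1, and PRDM1, the plasma cell regulator, did not pass the intensity filter. XBP1, a factor of the secretory programme, differed by −0.66 on the log2 scale (SE 0.17, limma adjusted p = 0.00576), and by −0.25 as deposited (adjusted p = 0.146). IRF4, a factor needed for plasma cells, had 0.28 centred (SE 0.31, limma adjusted p = 0.522) and 0.69 as deposited (adjusted p = 0.112). Its intensities were 199 ± 71.6 in quiescent and 117 ± 10.4 in cycling cells. The summed intensity of the 4 markers was 3373 to 4788 on quiescent and 4545 to 4748 on cycling arrays. Most of this sum is XBP1, whose deposited intensities were 3151 to 4208 on quiescent and 4314 to 4465 on cycling arrays, without overlap. The part of these markers in the fall of TNFRSF17 was not tested.

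TNFRSF14, which encodes HVEM, was the member that rose. Its intensities were 1348, 1189, 1243 and 1007 in quiescent samples 1 to 4, against 488, 682, 517 and 382 in cycling samples 1 to 4. The lowest quiescent sample was well above the highest cycling sample, which was again number 2. The means were 1197 ± 143 in quiescent and 517 ± 124 in cycling cells (SD, n = 4 each). This is a log2 difference of 0.82 (SE 0.19, 95% interval 0.41 to 1.23, limma adjusted p = 0.00319), with 1.23 as deposited (adjusted p = 0.000444) and 1.16 after quantile normalization (adjusted p = 0.000511). Of all genes tested 2.37% had a log2 difference as high or higher. Its promoter window, printed above, is one of the 3 with a match to the NF-kB consensus. The others belong to LTB and TRAF3, neither of them called in the centred values. Any link of the match to the rise was not tested.

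TNFRSF13C, which encodes the BAFF receptor, measured 816, 599, 968 and 597 in quiescent samples 1 to 4, against 343, 589, 409 and 395 in cycling samples 1 to 4. In the deposited intensities the groups just fail to overlap, with cycling sample 2 close below quiescent samples 2 and 4. In the centred values they overlap. On the log2 scale the groups differed by 0.37 centred (SE 0.22, 95% interval −0.09 to 0.83, limma adjusted p = 0.212), 0.78 as deposited (adjusted p = 0.0177) and 0.65 after quantile normalization (adjusted p = 0.0382). TNFRSF13B, which encodes TACI, measured 316, 212, 265 and 399 in quiescent samples 1 to 4, against 245, 217, 129 and 339 in cycling samples 1 to 4. Its groups overlap widely. Its log2 difference was −0.01 centred (SE 0.29, 95% interval −0.61 to 0.59, limma adjusted p = 0.986) and 0.40 as deposited (adjusted p = 0.342), and the interval leaves room for a change in either direction.

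The ratio of 2 genes on the same array is the same in the centred values and as deposited. Quantile normalization can change it, and the ratios given here are those before it. The log2 ratio of TNFRSF14 to TNFRSF17 was higher in quiescent than in cycling cells by 2.63, that of TNFRSF13C to TNFRSF17 by 2.17 and that of TNFRSF13B to TNFRSF17 by 1.80. For each of these 3 ratios every quiescent array lay above every cycling array. The ratios were chosen after the values of these genes were seen and share TNFRSF17, so they are a description with no test. They show unequal change of the receptors and not that any of them stayed the same.

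**Figure D2:**
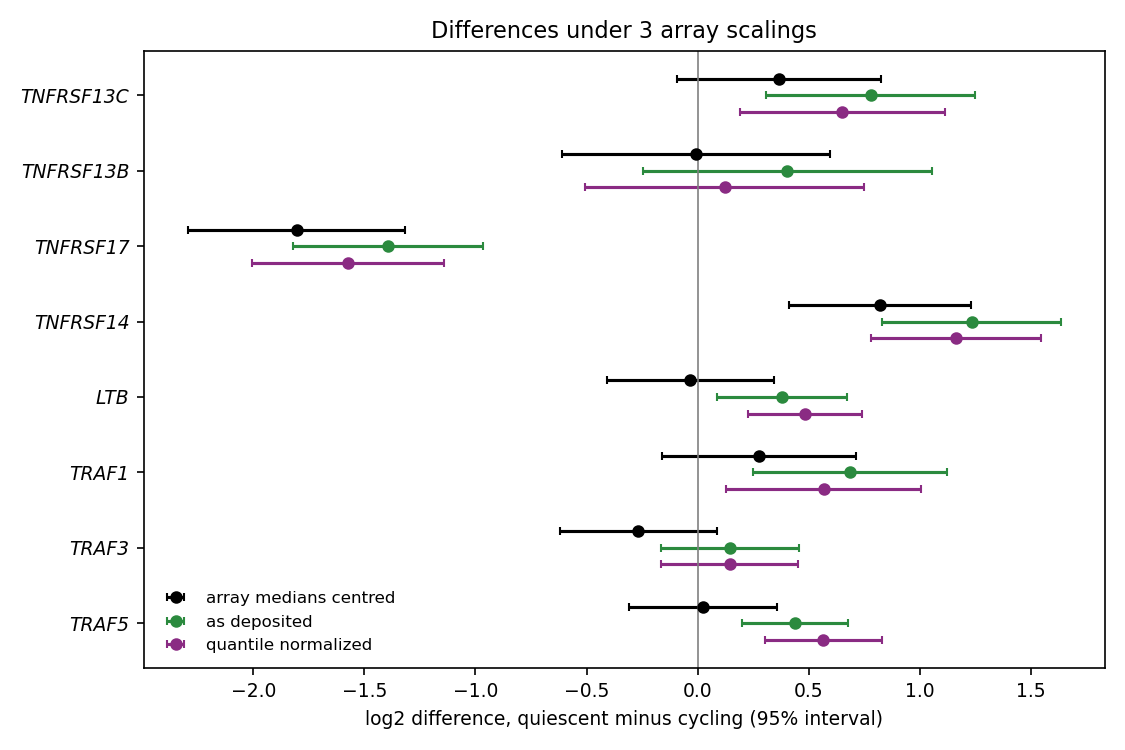
Log2 difference, quiescent minus cycling, for each of 8 genes with its 95% interval from limma, under centring of array medians, the scaling as deposited and quantile normalization. The intervals of TNFRSF17 and TNFRSF14 lie on one side of 0 under all 3 scalings, and those of TNFRSF13C, LTB, TRAF1 and TRAF5 include 0 when array medians are centred but not under the other 2 scalings.

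LTB, the ligand, measured 16721, 10646, 16101 and 16257 in quiescent samples 1 to 4, against 11129, 11074, 11743 and 11242 in cycling samples 1 to 4. Quiescent sample 2 lay below every cycling sample and the other quiescent samples above every one, so that 1 array makes the groups overlap. The 4 cycling samples were close together, with an SD of 306 against 2869 in the quiescent samples. The log2 difference was −0.03 centred (SE 0.18, 95% interval −0.41 to 0.34, limma adjusted p = 0.912), 0.38 as deposited (adjusted p = 0.0530) and 0.49 after quantile normalization (adjusted p = 0.00916). A dimmer probe set of LTB measured 361, 241, 124 and 252 in quiescent samples 1 to 4, against 163, 199, 127 and 202 in cycling samples 1 to 4. Its groups overlap through quiescent sample 3, and its log2 difference was 0.01 centred (adjusted p over all probe sets 0.978) and 0.43 as deposited (0.331).

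None of the 3 adaptors was called in the centred values at its brighter probe set. TRAF5, an adaptor of CD40, CD27 and the lymphotoxin beta receptor, measured 11629, 13233, 13718 and 13590 in quiescent samples 1 to 4, against 8070, 10375, 10015 and 10187 in cycling samples 1 to 4. In the deposited intensities every quiescent sample was above every cycling sample, and in the centred values the groups overlap. On the log2 scale this gave 0.02 centred (SE 0.16, 95% interval −0.31 to 0.36, limma adjusted p = 0.924), 0.44 as deposited (adjusted p = 0.0102) and 0.57 after quantile normalization (adjusted p = 0.00446). TRAF3, the adaptor that restrains NIK, measured 1075, 1339, 1193 and 1453 in quiescent samples 1 to 4, against 1102, 1304, 1080 and 1075 in cycling samples 1 to 4. Its deposited intensities overlap, and its centred values are all lower in quiescent cells without reaching the threshold. This gave a log2 difference of −0.27 centred (SE 0.17, limma adjusted p = 0.237) and 0.15 as deposited (adjusted p = 0.483). TRAF1, an adaptor that NF-kB is known to induce, measured 1015, 559, 722 and 682 in quiescent samples 1 to 4, against 476, 543, 377 and 426 in cycling samples 1 to 4. The deposited groups are parted only by the small gap between quiescent sample 2 and cycling sample 2. The log2 difference was 0.28 centred (SE 0.21, limma adjusted p = 0.332), 0.69 as deposited (adjusted p = 0.0230) and 0.57 after quantile normalization (adjusted p = 0.0553).

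**Figure D3:**
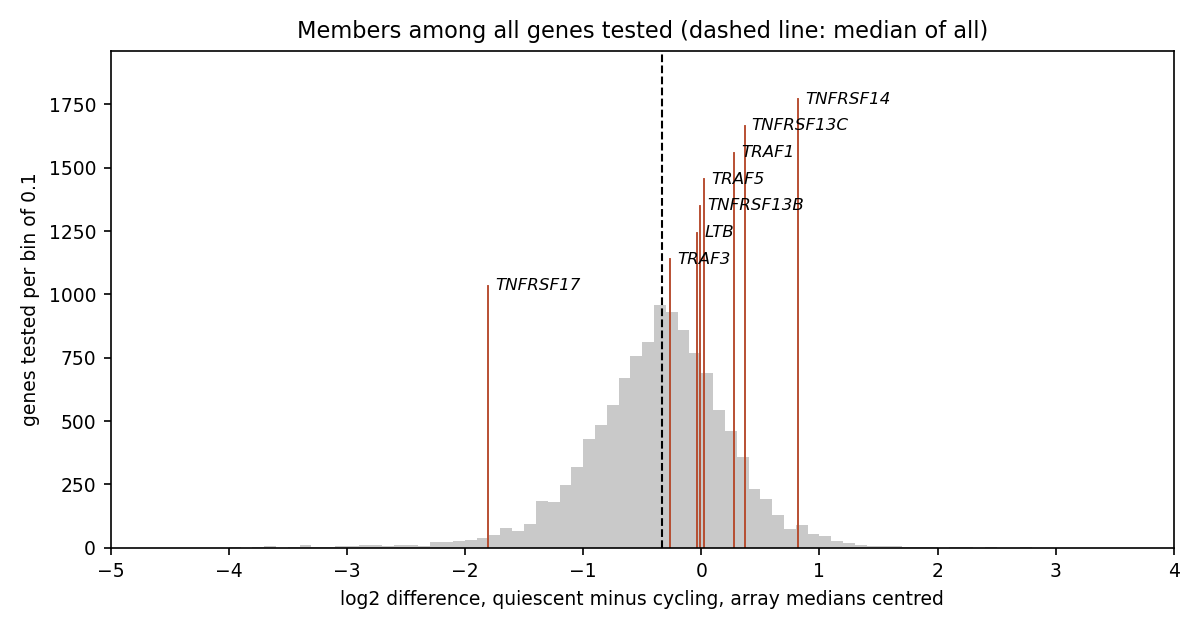
Distribution of the centred log2 difference, quiescent minus cycling, over 11678 genes tested, in bins of 0.1, with 8 genes marked by vertical lines whose heights carry no value. TNFRSF17 at −1.81 lies in the lower tail, and the other 7 lie above the dashed median of −0.33.

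A pair of probe sets was available for each of 4 genes, and they did not always give the same result. The dimmer probe set of TRAF1 measured 340, 339, 335 and 359 in quiescent samples 1 to 4, against 152, 196, 131 and 198 in cycling samples 1 to 4. These groups are far apart, and quiescent sample 2 is level with the others here. Its log2 difference was 0.63 centred (SE 0.22), 1.04 as deposited, and it was called higher centred (limma adjusted p over all probe sets 0.0381), as deposited (0.00369) and after quantile normalization (0.0151). The brighter probe set of TRAF1, given above, was called only as deposited, so whether TRAF1 rose depends on the probe set. The dimmer probe set of TRAF5 measured 242, 439, 322 and 375 in quiescent samples 1 to 4, against 166, 287, 85.8 and 111 in cycling samples 1 to 4. Its groups overlap between quiescent sample 1 and cycling sample 2, and its log2 difference was 0.79 centred (SE 0.29, adjusted p over all probe sets 0.0537) and 1.21 as deposited (0.0202). The other probe set of TRAF3 measured 1296, 1079, 859 and 1010 in quiescent samples 1 to 4, against 869, 885, 966 and 657 in cycling samples 1 to 4. Its groups overlap through quiescent sample 3, with a log2 difference of −0.08 centred (adjusted p over all probe sets 0.796) and 0.33 as deposited (0.173). Neither probe set of TRAF3 or of LTB was called in the centred values.

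**Figure D4:**
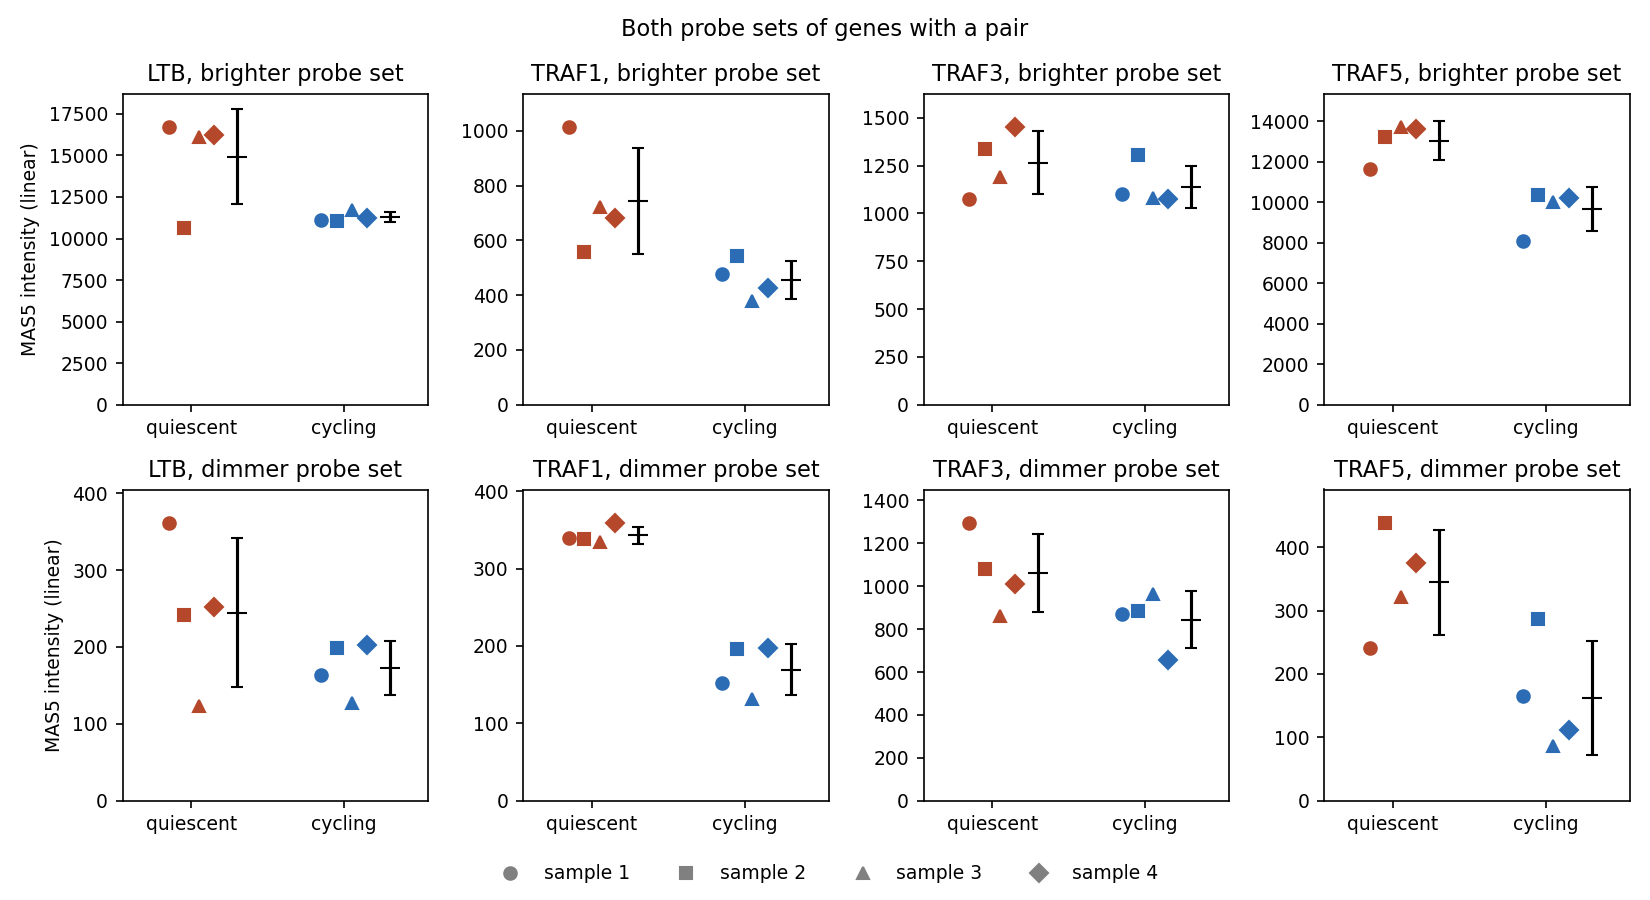
Deposited MAS5 intensity on linear axes for both probe sets of LTB, TRAF1, TRAF3 and TRAF5, brighter above and dimmer below, with quiescent samples left of cycling samples, symbols for sample numbers and bars for the mean and SD of 4 arrays. The dimmer TRAF1 probe set reads 335 to 359 on quiescent and 131 to 198 on cycling arrays, whereas its brighter probe set has quiescent sample 2 next to cycling sample 2.

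Cycling sample 2 was the cycling array nearest to the quiescent mean for 6 of the 8 genes, against 41.7% of all genes tested. Quiescent sample 2 was the quiescent array nearest to the cycling mean for 4 of them, against 25.6%. Without sample number 2 in both groups the log2 difference was −2.09 for TNFRSF17 (limma adjusted p = 3.35e-05) and 0.88 for TNFRSF14 (adjusted p = 0.00609). TNFRSF13C then had 0.53 (adjusted p = 0.0995) and TRAF1 0.40 (adjusted p = 0.156).

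The profile across the 8 arrays most like that of TNFRSF17 was that of POLR3B, a subunit of RNA polymerase III, followed by the histone gene H2AC14. The root mean square difference of the centred log2 values, each gene taken minus its own mean, was 0.12 for POLR3B and 0.15 for H2AC14, against a median of 0.83 over all other genes tested. Nearest to TNFRSF14 were the noncoding RNA gene RUSC1-AS1 at 0.11 and ZBTB20, a zinc finger repressor, at 0.12, against a median of 0.70. This likeness is a description over 8 arrays in which the group difference takes part.

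At their brightest probe sets, none of the other genes of the pathway was called under both the centred and the deposited scaling, and some dimmer probe sets, given below, were. Of 34 genes chosen 32 had a probe set and 28 passed the intensity filter. CD40LG and BIRC3 are not analysed here, and TNFRSF1B, TNFRSF9, BTLA and CD160 did not pass. In the centred values 0 of the 28 were called higher and 5 lower, against 2.8% and 32.5% of all genes tested, and 5 higher and 0 lower as deposited, against 12.2% and 15.4%. The median log2 difference of the 28 was −0.15 centred and 0.27 as deposited, against −0.33 and 0.08 for all genes tested. Of the 5 called lower, only CHUK stayed called without each array in turn. CHUK, a kinase that activates NF-kB subunits, measured 580 ± 164 in quiescent and 728 ± 42.3 in cycling cells (SD, n = 4 each), a log2 difference of −0.78 centred (SE 0.21, limma adjusted p = 0.00859) and −0.36 as deposited (adjusted p = 0.179). After quantile normalization it was not called either (adjusted p = 0.106). Quiescent sample 2 read 812, above every cycling sample, and the groups overlap in the centred values too.

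Among the ligands, LTA, which encodes lymphotoxin alpha, measured 500 ± 38.6 in quiescent and 603 ± 189 in cycling cells. Its log2 difference was −0.63 centred (limma adjusted p = 0.0327) and −0.21 as deposited (adjusted p = 0.498). TNFSF13B, which encodes BAFF, was dim at 153 ± 18.4 in quiescent and 74.0 ± 42.8 in cycling cells, where sample 3 read 19.4. Its log2 difference was 0.90 centred (SE 0.45, limma adjusted p = 0.131) and 1.32 as deposited (adjusted p = 0.0684), not called in either. In the deposited intensities its groups did not overlap, and in the centred values they did. TNFSF13, which encodes APRIL, was called higher only as deposited, by 0.86 (limma adjusted p = 0.0266), with 307 ± 85.9 in quiescent and 168 ± 37.6 in cycling cells. Among the receptors, CD27, the receptor of CD70, measured 10569 ± 1976 in quiescent and 11559 ± 1455 in cycling cells, with −0.55 centred (limma adjusted p = 0.0402) and −0.14 as deposited (adjusted p = 0.507). LTBR, the receptor of the lymphotoxin heterotrimer, was dim at 191 ± 130 in quiescent and 134 ± 57.6 in cycling cells and was not called (−0.04, SE 0.43, limma adjusted p = 0.952). The other LTBR probe sets were dimmer, with means of 91.8, 46.1 and 18.0 in quiescent and 91.4, 35.5 and 46.1 in cycling cells. Only the first of these passed the intensity filter, so whether LTBR was expressed is not settled here. CD40, the receptor of T cell help, measured 2605 ± 456 in quiescent and 2480 ± 186 in cycling cells and was not called (−0.36, SE 0.18, limma adjusted p = 0.145).

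Of the remaining TRAF genes, TRAF7 had a log2 difference of −0.60 centred (limma adjusted p = 0.0405) and −0.19 as deposited (adjusted p = 0.555), whereas TRAF4 and TRAF6 were not called under either scaling at their brightest probe sets. TRAF3IP3, a TRAF3-binding protein, had −1.28 centred (SE 0.47, limma adjusted p = 0.0403) and −0.87 as deposited (adjusted p = 0.211), at dim intensities of 106 ± 79.0 in quiescent and 156 ± 32.1 in cycling cells. BIRC2, a ubiquitin ligase that works with TRAF3, was called higher only as deposited (0.32, limma adjusted p = 0.0256) and after quantile normalization (adjusted p = 0.00764), with 11665 ± 457 in quiescent and 9333 ± 778 in cycling cells. CYLD, a deubiquitinase that restrains NF-kB, was called higher at its brightest probe set as deposited (0.87, limma adjusted p = 0.00656) and after quantile normalization, with 1945 ± 297 in quiescent and 1089 ± 278 in cycling cells, and was not called there in the centred values (0.45). Of its 6 dimmer probe sets 3 were called higher in the centred values too, as given below. Of the subunits that receptors of this family activate, NFKB2 and RELB were called higher only as deposited, by 0.51 (limma adjusted p = 0.0423) and 0.58 (adjusted p = 0.0429), and had 0.10 and 0.16 in the centred values. MAP3K14, which encodes NIK, measured 224 ± 10.9 in quiescent and 166 ± 36.1 in cycling cells and was not called under any of the 3 scalings.

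The genes of the pathway had 27 dimmer probe sets above the intensity limit, from 13 genes. In the centred values 4 of these were called higher and 4 lower, and 4 and 1 of them were called the same way as deposited. The shares over all probe sets were not counted, so these counts are a description. At the brightest probe sets of all genes tested, 2.8% were called higher and 32.5% lower in the centred values. CYLD accounts for 3 of the 4 that were higher, with log2 differences of 0.82, 0.85 and 0.67 centred (limma p adjusted over the whole set of probe sets 0.00392, 0.00246 and 0.0499). The fourth is a probe set of TNFRSF4, which encodes the costimulatory receptor OX40, with 379 ± 16.5 in quiescent and 142 ± 25.5 in cycling cells, a difference of 1.02 (adjusted p 0.00350). IKBKG, the regulatory subunit of the kinase complex with CHUK, was lower at a dimmer probe set under both scalings, with 325 ± 54.6 in quiescent and 522 ± 121 in cycling cells and differences of −1.08 centred (adjusted p 0.00422) and −0.67 as deposited (0.0329). A pair of TRAF4 probe sets was called lower in the centred values and not as deposited, with −0.90 and −0.86 (adjusted p 0.0237 and 0.0274), as was 1 of TRAFD1 with −0.88 (0.0121). For CYLD, TNFRSF4, IKBKG, TRAF4 and TRAFD1 the centred call thus depends on the probe set.

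**Figure D5:**
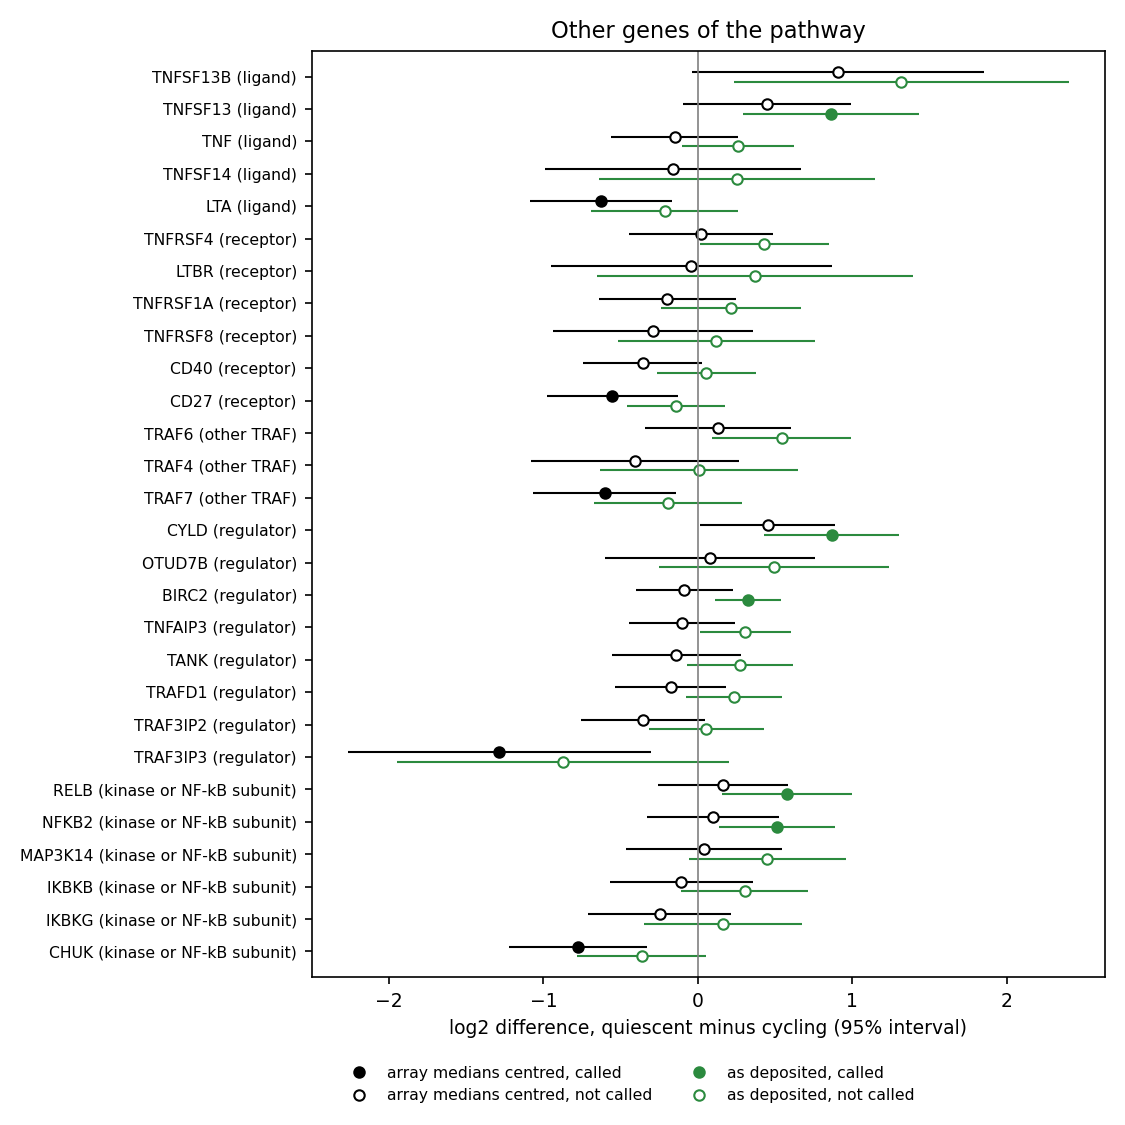
Log2 difference, quiescent minus cycling, with 95% intervals for 28 other genes of the pathway, grouped by role, in the centred values (black) and as deposited (green), with filled points for genes called at an adjusted p under 0.05. The 5 filled black points, all left of 0, and the 5 filled green points, all right of 0, belong to different genes.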

How the data were processed

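Affymetrix arrays measured RNA of 4 quiescent and 4 cycling samples, grouped and numbered by their titles. Biotinylated cRNA was made from Trizol-extracted total RNA, per the labels' protocols. The deposited intensities come from MAS5 per the submitters' processing notes, without a version. The number of arrays limits the precision. Present calls were not used, so dim signal and background are not separated.

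Intensities under 1 were set to 1, taken to log2 and centred on the array median. Probe sets were named by the platform annotation, which can be old: 41097 had 1 gene symbol, 1801 several, and 11777 of the array were unlisted. Entrez identifiers of 41043 matched RefSeq (GRCh38.p14), with 0 symbols changed. For each of 19775 genes the brightest probe set was taken, and 11678 with a mean at or above the median of non-control probe sets (intensity 83.3) were tested. The groups were compared with limma 3.58.1 in R 4.3.3 (lmFit, eBayes with trend and robust, Benjamini-Hochberg over all genes tested). The gene test was tried on simulated data. Other probe sets were adjusted over all probe sets above the same limit. Sample numbers were not used as pairs, since correlations of same-numbered deviations ran from 0.036 to 0.344 and not every one passed 0.1. Those of differently numbered deviations ran from −0.166 to 0.138, so whether the fractions are paired is not settled. Alternatives were other scalings, filters and offsets, plain eBayes, the replicate block, the mean of probe sets and leaving out arrays. Named genes are all members, the called pathway genes, 4 fixed ligands and receptors, and the 2 nearest profiles of called members. Other genes named were chosen after their values were seen. The members and lists were chosen with earlier results of these data known. Plots were made with Python 3.11.15 and matplotlib 3.10.9.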

Additional observations from a re-analysis of the deposited data

Results flagged for a closer look

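LTB in quiescent sample 2 had a deposited intensity of 10646, far below the other 3 quiescent samples at 16101 to 16721. TRAF3 in cycling sample 2 had 1304, above the other cycling samples at 1075 to 1102. TRAF5 in cycling sample 1 had 8070, below the others at 10015 to 10375. The gap to the nearest other sample, as a share of the range of its group of 4, was 0.898, 0.879 and 0.844, each above Dixon's limit. In the centred log2 values these shares were 0.817, 0.627 and 0.124, and none of the 3 passed that limit. Chance gives such a gap in about 1 of 20 groups, and 42 groups were looked at. Of these, 26 came from the deposited values, among them the ACTB log2 ratio, and 16 were centred values of the same genes. The groups are thus not all separate looks.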

How the results depend on the processing

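TNFRSF17 was called lower and TNFRSF14 higher under every alternative run, with log2 differences of −1.98 to −1.67 and 0.71 to 0.92 when each array was left out in turn. As deposited, 1430 genes were called higher and 1802 lower, and after quantile normalization 1230 and 1913, against 327 and 3794 centred. Members called higher were then 4 and 4 in place of 1, with TNFRSF13C at 0.78 and 0.65, TRAF5 at 0.44 and 0.57, TRAF1 at 0.69 (called as deposited alone) and LTB at 0.38 and 0.49 (called after quantile normalization alone). Of the uncalled values near 0 that changed sign, TNFRSF13B had 0.40 as deposited, 0.12 after quantile normalization, 0.046 with 32 added before log2 and 0.050 without sample number 2. LTB had 0.073 with 32 added and 0.025 without sample number 2, TRAF3 0.15 under both other scalings, and TRAF5 −0.034 without sample number 2. Leaving out each array in turn gave −0.21 to 0.22 for TNFRSF13B, −0.13 to 0.12 for LTB and −0.047 to 0.10 for TRAF5, and 0.47 to 0.63 for the ACTB ratio, which missed the threshold without quiescent sample 2 or 3 (exact permutation p = 0.0571). Pathway genes called lower were 5 as described, 0 as deposited and after quantile normalization, 1 without a filter, with 32 added and with plain eBayes, 3 with the mean of probe sets, 2 without sample number 2, and 1 to 4 when each array was left out. Pathway genes called higher were 5 as deposited, 2 after quantile normalization, and 1 (CYLD) with 32 added, with the mean of probe sets and with the replicate block, against 0. The replicate block changed no member's call (464 genes higher and 4439 lower in all), and not every sample correlated best with its own number. At the stricter filter TNFRSF13B was not tested. The causes of these changes were not tested. Dim values, such as those of TNFSF13B and LTBR, limit what could be detected.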
